A study of Homo sapiens with 6 samples.

Results

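The mevalonate, sterol and fatty acid synthesis genes are given here in human neuroblastoma cells. The set holds 31 genes of the 25370 rows in the deposited count table, found by their symbols, and all 31 passed the filter on low counts. Its members fall into 5 roles: 7 enzymes of the mevalonate pathway, 3 that make squalene and lanosterol, 9 that turn lanosterol into cholesterol, 5 regulators of the sterol response or carriers of sterol, and 7 enzymes of fatty acid synthesis and desaturation. The rule for membership is the pathway, but the list was drawn up with earlier results of these data known.

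RNA was read in 6 libraries of cultured cells. They were Be2C cells made to express LMO1 (2 libraries), Kelly cells (1 library), unmodified Be2C cells, called parental here (1 library), and Be2C cells carrying a vector control (2 libraries). Be2C and Kelly are established neuroblastoma lines with MYCN amplification, and LMO1 is a LIM-domain protein that acts in transcription complexes. The labels give neither the promoter behind LMO1 nor whether the modified cells were a pool or a clone. They also leave unsaid whether replicates were grown separately, so each p-value reflects library-to-library spread that may be technical alone.

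Cholesterol is built from acetyl-CoA through mevalonate, farnesyl pyrophosphate, squalene and lanosterol, and the same acetyl-CoA feeds fatty acid synthesis. The genes of both routes are driven by the SREBP transcription factors, which are encoded by SREBF1 and SREBF2. SCAP carries the SREBP precursors out of the endoplasmic reticulum for cleavage when sterol is low, and INSIG1 holds them back when sterol is high. SREBP factors bind sterol regulatory elements or E-box-like sites in promoters, usually beside a CCAAT box bound by the factor NF-Y.

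The promoters of 4 members are shown because HMGCS1, MSMO1 and INSIG1 had among the lowest LMO1 to vector values described below and because SREBF2 encodes the sterol-responsive factor itself. Each is the 250 bases before a RefSeq start site in GRCh38.p14, read 5′ to 3′ on the gene's strand. HMGCS1 lies at chr5:43313413-43313662 on the minus strand (the first of its 2 listed start sites), MSMO1 at chr4:165327419-165327668 on the plus strand, INSIG1 at chr7:155297628-155297877 on the plus strand and SREBF2 at chr22:41832855-41833104 on the plus strand. Capitals mark CCAAT boxes (CCAAT, or ATTGG on the other strand), the sterol regulatory element TCACNCCAC and the palindrome TCACGTGA.
HMGCS1: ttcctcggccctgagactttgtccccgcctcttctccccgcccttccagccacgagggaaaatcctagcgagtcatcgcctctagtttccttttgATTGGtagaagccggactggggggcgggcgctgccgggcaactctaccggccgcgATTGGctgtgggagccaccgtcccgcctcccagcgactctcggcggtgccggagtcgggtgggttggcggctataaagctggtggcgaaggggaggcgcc
MSMO1: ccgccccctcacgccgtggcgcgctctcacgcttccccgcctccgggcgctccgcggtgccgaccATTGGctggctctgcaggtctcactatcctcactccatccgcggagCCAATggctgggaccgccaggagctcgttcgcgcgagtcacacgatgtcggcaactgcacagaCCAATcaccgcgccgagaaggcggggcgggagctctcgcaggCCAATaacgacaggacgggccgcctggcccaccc
INSIG1: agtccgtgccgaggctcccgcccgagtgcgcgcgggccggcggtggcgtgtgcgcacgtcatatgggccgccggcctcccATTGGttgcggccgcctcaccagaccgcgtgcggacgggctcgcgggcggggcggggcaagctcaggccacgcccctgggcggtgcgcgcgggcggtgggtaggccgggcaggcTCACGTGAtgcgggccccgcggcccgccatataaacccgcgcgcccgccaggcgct
SREBF2: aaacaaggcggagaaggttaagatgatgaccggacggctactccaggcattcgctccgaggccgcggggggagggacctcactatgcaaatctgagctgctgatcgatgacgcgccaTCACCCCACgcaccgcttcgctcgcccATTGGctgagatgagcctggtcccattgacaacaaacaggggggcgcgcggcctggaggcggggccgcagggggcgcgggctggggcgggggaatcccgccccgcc

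MSMO1 carries 4 CCAAT boxes in this stretch, HMGCS1 carries 2, and INSIG1 and SREBF2 carry 1 each. SREBF2 alone of the members holds the element TCACNCCAC, which starts 133 bases before its start site. INSIG1 alone holds TCACGTGA, 56 bases before its start site, and this palindrome contains the E-box CACGTG. The search covered both strands of 36 windows of 300 bases (250 before and 50 after the start site), which belonged to the 27 members with an entry. ACAT2, FASN, FDFT1 and SQLE had none. A CCAAT box stood in 24 of the 36 windows, or 66.7%, against 34.6% of all 35116 windows in the RefSeq table. Some windows of a gene overlap, and these 24 belonged to 20 of the 27 members. CACGTG stood in 5 of the 36 windows against 7.26% of all windows, TCACNCCAC in 1 against 1.13%, and TCACGTGA in 1 against 0.980%. The 5 windows with CACGTG belonged to 4 members, because 2 overlapping windows of SC5D hold the same site. These are matches of letters only.

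LMO1 itself measured 6.59 and 5.89 CPM (the count relative to the library total after TMM scaling) in the LMO1 libraries, against 1.06 and 0.928 CPM in the vector libraries. On the log2 scale it was 2.65 higher (SE 0.270, edgeR adjusted p = 3.46e-11). Kelly held 92.7 CPM of LMO1 and parental Be2C 1.91 CPM. Depth ran from 18737591 to 59512958 counts per library, and a count of 0 allows up to 3 counts, or 0.160 CPM in the shallowest library. All 11 neuroblastoma markers were at 1 CPM or more in all 6 libraries, and with LMO1 4 of them were called higher and 5 lower than with vector, from -0.70 (TBX2) to 2.57 (DBH) on the log2 scale. Markers of blood cells summed to 7.27 and 8.81 CPM in LMO1 libraries, 8.13 CPM in Kelly, 8.33 CPM in the parental library and 8.91 and 9.69 CPM in vector libraries. Schwann and melanocytic markers summed to 13.4 and 14.6 CPM in LMO1 libraries, 32.9 CPM in Kelly, 17.2 CPM in the parental library and 18.7 and 18.1 CPM in vector libraries, and 1 of the 3 tested was called lower with LMO1 (MITF, log2 -0.53).

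With LMO1, 17 of the 31 genes were lower and 2 were higher than with vector (edgeR quasi-likelihood test, adjusted p below 0.05 over 15480 genes). Among all genes tested, 15.1% were called lower and 15.9% higher. These shares include genes of low counts, whereas each member had at least 152 counts in each library. With a filter of at least 5 CPM in 2 libraries, 1983 of 11495 genes were called lower and 2166 higher. Of the 31, 16 were lower and 4 higher with that filter. The median log2 fold change of the 31 was -0.15, against 0.00 over all genes tested, and 21 of the 31 values were below 0 (49.9% of all genes tested). The changes were small: 0 called members reached 2-fold, and called members moved by a median of 0.30 log2 units in either direction, against 0.33 for all called genes. These are bulk samples, in which fewer cells of a kind and less RNA per cell cannot be told apart. The 2 LMO1 libraries lay below both vector libraries in 21 members (32.1% of all genes tested) and above both in 6 (31.5%).

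The parental library bears directly on these calls. When it was added to the 2 vector libraries as 1 more control, edgeR called 0 of the 31 genes and 0 of all 15704 genes tested, with 1 of the 31 genes and 1381 of all genes at an unadjusted p below 0.05. With other tools in the same design, both chosen after seeing the data, limma-voom called 0 genes, with 1321 at an unadjusted p below 0.05, and the DESeq2 Wald test called 245 higher and 105 lower, of which HMGCS1 was the member. The calls below are therefore differences between the LMO1 and the vector libraries, and the parental levels are given beside them. The LMO1 and vector libraries shared a protocol text, and the parental and Kelly libraries came under another. Where the parental library is set beside the LMO1 or vector libraries, preparation and cells therefore cannot be told apart.

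**Figure D1:**
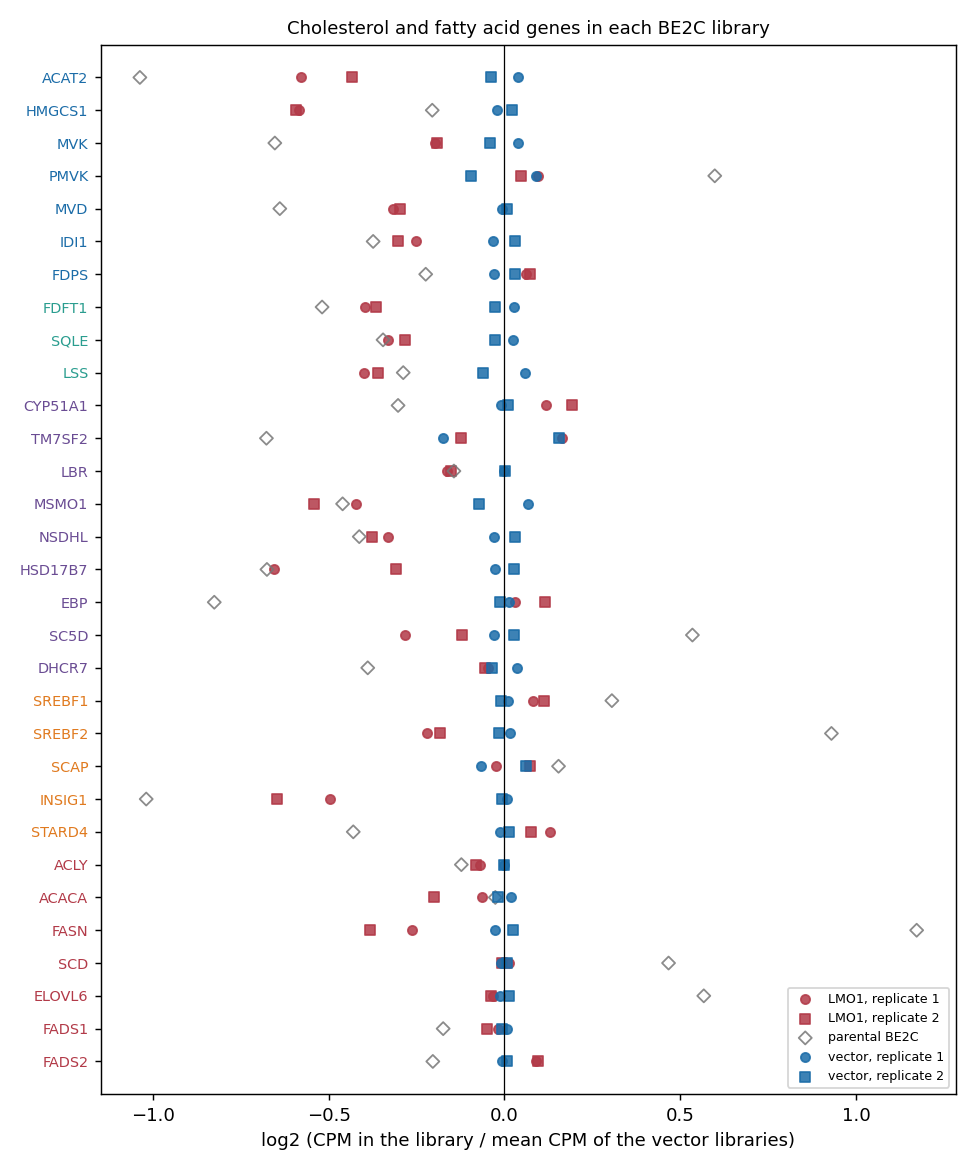
Each row is a gene and each point a Be2C library, placed by log2 of its CPM over the mean CPM of the vector libraries, with circles and squares for replicates and open diamonds for the parental library. HMGCS1 was at 153 and 152 CPM in LMO1 libraries, 199 CPM in the parental library, and 226 and 233 CPM in vector libraries. FASN was at 267 and 246 CPM in LMO1 libraries, 722 CPM in the parental library, and 315 and 326 CPM in vector libraries.

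In the mevalonate pathway 4 of 7 enzymes fell and none rose. HMGCS1, which joins acetoacetyl-CoA with acetyl-CoA at the entry of the pathway, measured 153 and 152 CPM in LMO1 libraries, against 226 and 233 CPM in vector libraries. It fell by 33.2%, the most of the 31 genes (log2 -0.58, 95% interval -0.66 to -0.51, edgeR adjusted p = 1.35e-17). The parental library, at 199 CPM, lay between the groups. ACAT2, the cytosolic thiolase that makes acetoacetyl-CoA, averaged 51.6 ± 3.66 CPM in LMO1 libraries and 73.2 ± 2.72 CPM in vector libraries (SD, n = 2 each), with the groups apart. It fell by 0.49 on the log2 scale (SE 0.0626, edgeR adjusted p = 1.17e-08), and the parental library, at 35.7 CPM, lay below all 4. On the opposite strand, ACAT2 exons overlap those of SOD2-OT1 over 1458 bases, SOD2 over 1141 bases and TCP1 over 397 bases in GENCODE 29, and the strand setting of the counting was not given in the sources used here. SOD2, a mitochondrial superoxide dismutase, averaged 48.6 CPM with LMO1 and 45.9 CPM with vector (log2 0.09, edgeR adjusted p = 0.363). TCP1, a chaperonin subunit, averaged 487 CPM with LMO1 and 554 CPM with vector (log2 -0.18, edgeR adjusted p = 1.06e-06). Their part in the ACAT2 count was not tested.

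The next steps moved less. MVD, which makes isopentenyl pyrophosphate, had 24.9 and 25.2 CPM in LMO1 libraries, against 30.8 and 31.1 CPM in vector libraries, a log2 fold change of -0.30 (edgeR adjusted p = 0.00571). IDI1, the isomerase after it, averaged 72.1 ± 1.79 CPM with LMO1 and 87.3 ± 2.66 CPM with vector, a log2 fold change of -0.27 (edgeR adjusted p = 8.16e-05). Both were lower still in the parental library, at 19.9 CPM for MVD and 67.4 CPM for IDI1. MVK, mevalonate kinase, had a log2 value of -0.19 (edgeR adjusted p = 0.0593), with the groups apart but the test missed. PMVK, the kinase that follows, had a log2 value of 0.08 and overlapping groups.

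FDPS, which makes farnesyl pyrophosphate, was not called. It measured 269 and 272 CPM in LMO1 libraries, against 253 and 264 CPM in vector libraries (log2 0.07, edgeR adjusted p = 0.104). The 2 LMO1 libraries lay above both vector libraries, by a margin that missed the threshold. With total-count scaling it was called higher (log2 0.10, edgeR adjusted p = 0.0234), as it was among genes of at least 5 CPM (edgeR adjusted p = 0.0332), and its adjusted p ran up to 0.624 over the 12 alternatives that kept the parental library out of the controls. The parental library, at 221 CPM, lay below all 4. FDPS has 8 annotated pseudogenes, so its count is uncertain.

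All 3 genes of the steps that make squalene and lanosterol fell. FDFT1, squalene synthase, had 78.5 and 80.2 CPM in LMO1 libraries, against 105 and 101 CPM in vector libraries, and fell by 22.9% (edgeR adjusted p = 5.19e-08). SQLE, the epoxidase that adds oxygen to squalene, had 165 and 170 CPM in LMO1 libraries, against 211 and 204 CPM in vector libraries, and fell by 18.8% (edgeR adjusted p = 1.03e-08). LSS, which closes the ring to lanosterol, had 81.2 and 83.5 CPM in LMO1 libraries, against 111 and 103 CPM in vector libraries, and fell by 22.7% (edgeR adjusted p = 7.39e-08). In each case the groups were apart. The parental library was below both LMO1 libraries for FDFT1 (72.1 CPM) and SQLE (163 CPM), and for LSS it lay between the groups (87.8 CPM).

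Beyond lanosterol, 5 of 9 enzymes fell and 1 rose. MSMO1, which removes methyl groups from the sterol ring, had 36.2 and 33.3 CPM in LMO1 libraries, against 50.9 and 46.2 CPM in vector libraries. The difference was -0.48 on the log2 scale (95% interval -0.63 to -0.33, edgeR adjusted p = 1.56e-06), with 35.3 CPM in the parental library. NSDHL, its partner in demethylation, fell by 0.35 on the log2 scale (SE 0.104, edgeR adjusted p = 0.00761), and its call was lost without vector replicate 2 (edgeR adjusted p = 0.0693) and with the DESeq2 Wald test (adjusted p = 0.0553). HSD17B7, the ketoreductase of the same complex, had 8.01 and 10.2 CPM in LMO1 libraries, against 12.4 and 12.8 CPM in vector libraries, a log2 value of -0.46 (edgeR adjusted p = 0.0103). It had 152 to 318 counts in these 4 libraries. Without LMO1 replicate 1 its value was -0.31 (edgeR adjusted p = 0.165), and the call was also lost without vector replicate 2 (edgeR adjusted p = 0.0594) and with the DESeq2 Wald test (adjusted p = 0.0741). HSD17B7 also has 2 annotated pseudogenes, of which HSD17B7P2 held 39 and 33 counts in LMO1 libraries and 36 and 45 counts in vector libraries.

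LBR, a reductase of the ring that is also a nuclear lamina receptor, fell by 0.15 on the log2 scale (edgeR adjusted p = 0.00236). SC5D, a sterol desaturase at 107 CPM in the parental library, fell by 12.4% (edgeR adjusted p = 0.0117). The SC5D call was lost without LMO1 replicate 1, where its log2 value was -0.12 against -0.19 with all 4 libraries (edgeR adjusted p = 0.283). It was also lost without vector replicate 2 (edgeR adjusted p = 0.119) and with the DESeq2 Wald test (adjusted p = 0.0735). CYP51A1, the lanosterol demethylase, went the other way. It measured 147 and 154 CPM in LMO1 libraries, against 134 and 136 CPM in vector libraries, a rise of 11.9% (log2 0.16, edgeR adjusted p = 0.00208), with 109 CPM in the parental library, and without LMO1 replicate 2 the call was lost (edgeR adjusted p = 0.107). CYP51A1 has 3 annotated pseudogenes, and in GENCODE 29 the gene AC000120.2 on the same strand covers 2844 of its 3584 exon bases (79.4%). AC000120.2 was not among the genes tested. Whether the annotation used in the counting held it is not known, so the CYP51A1 count is uncertain. EBP, the sterol isomerase, averaged 63.8 ± 2.63 CPM with LMO1 and 60.7 ± 0.713 CPM with vector. DHCR7, which reduces the last double bond in the route through lathosterol, averaged 30.3 ± 0.124 CPM with LMO1 and 31.4 ± 1.10 CPM with vector, and TM7SF2, another reductase of the ring, averaged 9.78 ± 1.37 CPM with LMO1 and 9.60 ± 1.55 CPM with vector (SD, n = 2 each). None of these 3 passed the test, and their 95% intervals on the log2 scale were -0.04 to 0.20, -0.21 to 0.12 and -0.28 to 0.33.

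Taking the 19 sterol pathway enzymes of these 3 roles, 12 fell and 1 rose, and the median log2 fold change was -0.27. The shares over all genes tested were 15.1% called lower and 15.9% called higher, with a median of 0.00. Counts given for single roles stand beside the same shares. NSDHL, HSD17B7 and SC5D among the 12, and CYP51A1, which rose, lost their calls in some alternatives, as given above.

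**Figure D2:**
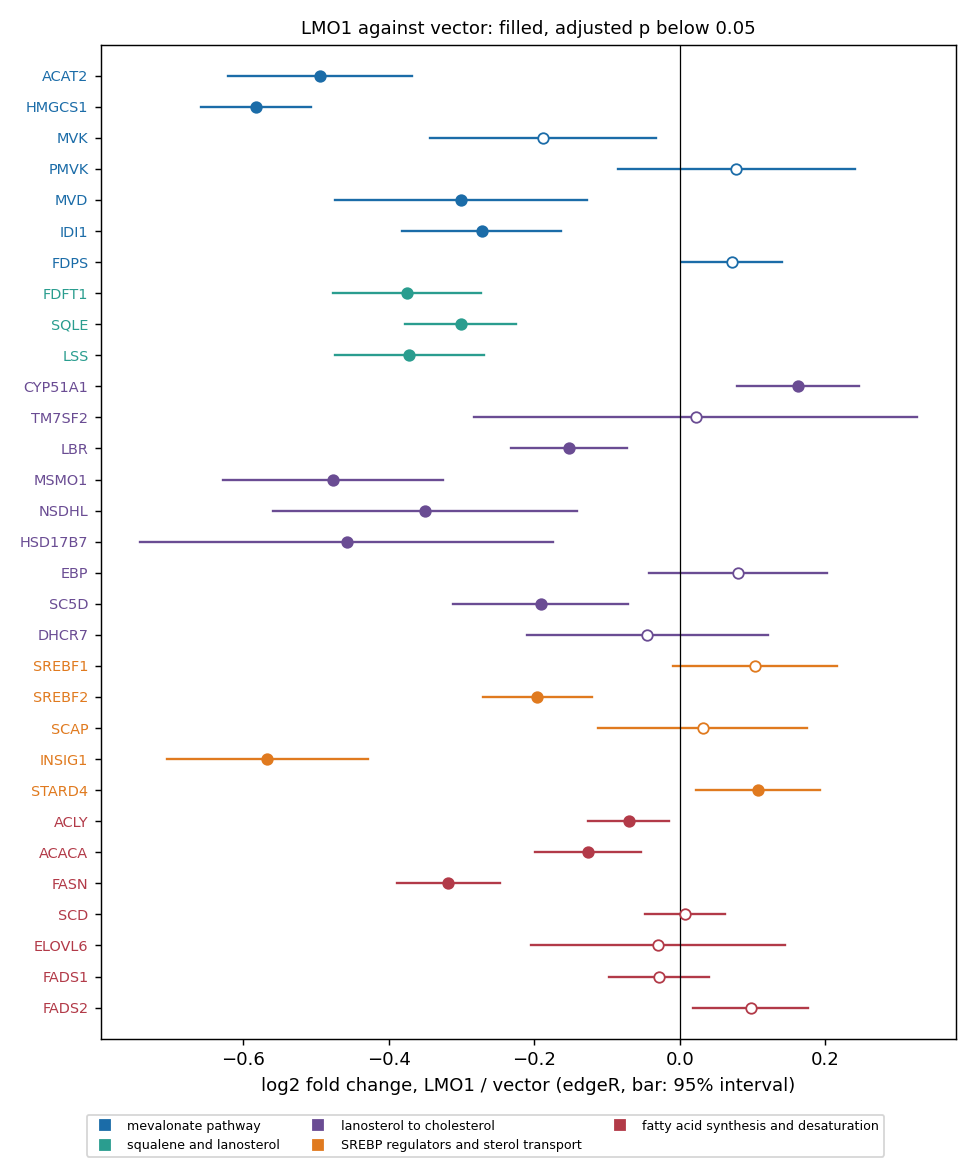
Each row is a gene, the point is its log2 fold change of LMO1 over vector from edgeR, the bar its 95% interval, and the colour its role. Filled points passed an adjusted p of 0.05: 17 lie left of 0, from HMGCS1 at -0.58 to ACLY at -0.07, and 2 lie right of it, CYP51A1 at 0.16 and STARD4 at 0.11.

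Among the regulators, INSIG1 and SREBF2 fell and STARD4 rose. INSIG1, the endoplasmic reticulum anchor that is itself a sensitive target of SREBP, had 42.7 and 38.5 CPM in LMO1 libraries, against 60.6 and 59.9 CPM in vector libraries. It fell by 32.5% (log2 -0.57, 95% interval -0.70 to -0.43, edgeR adjusted p = 3.56e-09). In parental cells INSIG1 stood at 29.7 CPM, below all 4 modified libraries. SREBF2 had 177 and 182 CPM in LMO1 libraries, against 209 and 204 CPM in vector libraries, and fell by 12.7% (edgeR adjusted p = 4.04e-05). Here the parental library was far above both groups, at 394 CPM. STARD4, a soluble sterol carrier, averaged 143 ± 3.69 CPM with LMO1 and 133 ± 1.80 CPM with vector (SD, n = 2 each). Its call was marginal (log2 0.11, edgeR adjusted p = 0.0466). It was lost with DESeq2 size factors, DESeq2, limma-voom, no low-count filter, all 6 libraries in the fit and each replicate left out, with adjusted p-values up to 0.324. SREBF1, with 73.9 and 75.6 CPM in LMO1 libraries against 70.4 and 69.3 CPM in vector libraries, was not called (log2 0.10, edgeR adjusted p = 0.164). SCAP had overlapping groups and a log2 value of 0.03.

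In fatty acid synthesis 3 of 7 enzymes fell and none rose, and their log2 values ran from -0.32 to 0.10. FASN, the fatty acid synthase, had 267 and 246 CPM in LMO1 libraries, against 315 and 326 CPM in vector libraries, and fell by 19.8% (log2 -0.32, 95% interval -0.39 to -0.25, edgeR adjusted p = 3.13e-10). ACACA, which makes malonyl-CoA for it, had 269 and 244 CPM in LMO1 libraries, against 285 and 277 CPM in vector libraries. It fell by 8.39% (log2 -0.13, edgeR adjusted p = 0.00558). The call was lost without LMO1 replicate 2, where the log2 value was -0.06 (edgeR adjusted p = 0.237), and without vector replicate 1 (edgeR adjusted p = 0.0720), and without LMO1 replicate 1 the value was -0.20. ACLY, which splits citrate to cytosolic acetyl-CoA, averaged 500 ± 2.46 CPM with LMO1 and 527 ± 0.105 CPM with vector (SD, n = 2 each), and fell by 4.76% (edgeR adjusted p = 0.0498). The ACLY call was lost in 7 of the 12 alternatives, among them total-count scaling (edgeR adjusted p = 0.245), DESeq2 (adjusted p = 0.104), and the fits that left out LMO1 replicate 2 (edgeR adjusted p = 0.0524) or either vector library (edgeR adjusted p = 0.199 and 0.237).

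The desaturases and the elongase were not called. SCD, which makes oleate, measured 595 and 587 CPM in LMO1 libraries, against 586 and 593 CPM in vector libraries. Its log2 value was 0.01 with a 95% interval of -0.05 to 0.06, the narrowest of the set. FADS1, a desaturase of polyunsaturated fatty acids, had a log2 value of -0.03 (interval -0.10 to 0.04), and ELOVL6, which lengthens palmitate, also -0.03 (interval -0.20 to 0.14). FADS2, which acts before FADS1 on the same fatty acids, had 165 and 166 CPM in LMO1 libraries, against 155 and 156 CPM in vector libraries, and missed the threshold (log2 0.10, edgeR adjusted p = 0.0525). With total-count scaling FADS2 was called higher (edgeR adjusted p = 0.0134), and likewise among genes of at least 5 CPM (edgeR adjusted p = 0.0182). FADS1 and FADS2 exons overlap on opposite strands over 490 bases in GENCODE 29. SCD and FADS2 have 1 annotated pseudogene each.

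**Figure D3:**
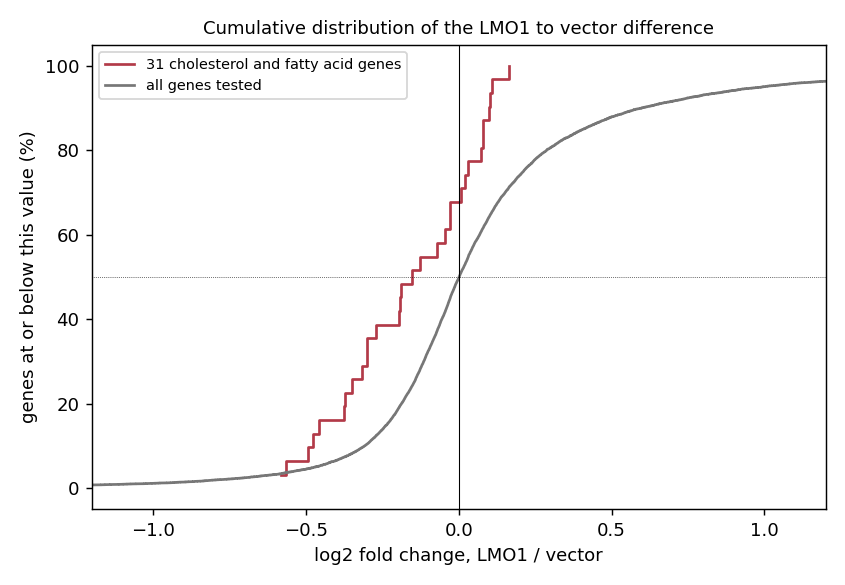
The lines give the percentage of genes at or below each log2 fold change of LMO1 over vector, for the 31 cholesterol and fatty acid genes and for all 15480 genes tested. The line of the 31 genes crosses 50% at -0.15 and that of all genes at 0.00, and the 31 values run from -0.58 to 0.16. The axis leaves out the most extreme of all genes.

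Of the 17 lower genes, 12 kept their direction and call in all 12 alternatives that left the parental library out of the controls: ACAT2, HMGCS1, MVD, IDI1, FDFT1, SQLE, LSS, LBR, MSMO1, SREBF2, INSIG1 and FASN. Neither of the 2 higher genes did. In the parental library, 9 of the 17 lower genes were below both LMO1 libraries (ACAT2, MVD, IDI1, FDFT1, SQLE, NSDHL, HSD17B7, INSIG1 and ACLY). Another 7 were above both (HMGCS1, LSS, LBR, SC5D, SREBF2, ACACA and FASN), and MSMO1 lay between the 2 LMO1 libraries. Of these 7, HMGCS1, LSS, LBR and ACACA lay between the LMO1 and the vector libraries. SC5D, SREBF2 and FASN were also above both vector libraries. All others of the 17 were below both vector libraries in the parental library. This placement was not counted over all genes, so these counts only describe the members. Fibroblast and smooth muscle markers moved with the groups as well, as did the neuroblastoma and Schwann or melanocytic markers given above. The 8 genes of the fibroblast and smooth muscle list summed to 141 and 139 CPM in LMO1 libraries, 273 CPM in the parental library and 220 and 221 CPM in vector libraries. Of 7 tested, 3 were called lower (ACTA2, TAGLN and COL3A1) and 2 higher (LUM and DCN). The collagen gene COL1A2, too low to be tested, had 0 counts in both LMO1 libraries. In vector replicate 1 as well, 1 of the 8 genes was at 0 counts, so no difference is read from COL1A2. The part of these 3 marker lists in the fall of the sterol genes was not tested.

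Other genes of lipid metabolism were read from lists beside the 31. The counts of each list stand beside shares of 15.1% called lower and 15.9% called higher among all genes tested. Of 14 genes that use isoprenoids downstream of FDPS, 3 were lower and 1 higher: RABGGTB, a subunit of the enzyme that prenylates RAB proteins, fell by 0.23 on the log2 scale (edgeR adjusted p = 0.000549), PDSS1, which builds the ubiquinone side chain, by 0.28 (edgeR adjusted p = 0.0277), and COQ2 rose by 0.46 (edgeR adjusted p = 0.0223). FNTA, a farnesyltransferase subunit, fell by 0.14 (edgeR adjusted p = 0.0356). The median of the 14 was -0.01. Of 11 genes that process or degrade SREBP, 2 were higher and none lower, with a median log2 value of -0.04. INSIG2, the paralogue of INSIG1, averaged 7.32 ± 0.0838 CPM with LMO1 and 4.77 ± 1.15 CPM with vector (SD, n = 2 each), a log2 fold change of 0.63 (edgeR adjusted p = 0.00809), opposite in sign to INSIG1. PAQR3 was the other (log2 0.25, edgeR adjusted p = 0.0452).

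Of 12 genes around the oxysterol receptors and efflux, 2 were higher and 1 lower, with a median log2 value of -0.06. ABCG1, a cholesterol exporter, averaged 25.6 ± 1.28 CPM with LMO1 and 9.42 ± 0.134 CPM with vector (SD, n = 2 each). It rose by 1.45 on the log2 scale (SE 0.114, edgeR adjusted p = 1.16e-14), and its parental level was 20.6 CPM. ABCA2 rose by 0.17 (edgeR adjusted p = 0.0215) and RXRA, a partner of the oxysterol receptors, fell by 0.27 (edgeR adjusted p = 0.00347). Of 12 tested genes of sterol uptake, storage and transport, 3 were higher and none lower, with a median log2 value of 0.02: the lipoprotein receptor SCARB1 (log2 0.33, edgeR adjusted p = 7.77e-06), TSPO (log2 0.29, edgeR adjusted p = 2.22e-05) and VLDLR (log2 0.31, edgeR adjusted p = 0.00546).

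Of 28 tested genes of other fatty acid and lipid assembly steps, 7 were higher and 4 lower, and the median log2 value was 0.09. HSD17B12, a reductase of fatty acid elongation, rose by 0.42 (edgeR adjusted p = 9.67e-08), ACACB, the mitochondrial paralogue of ACACA, by 0.77 (edgeR adjusted p = 6.80e-06), and the citrate carrier SLC25A1 by 0.41 (edgeR adjusted p = 1.17e-05). Of 19 genes of fatty acid oxidation, 4 were higher and 4 lower, with a median log2 value of 0.01. CPT1C, the brain form of the carnitine transferase family, rose by 0.59 (edgeR adjusted p = 4.80e-07), while CPT1A fell by 0.23 (edgeR adjusted p = 1.59e-05), as did ETFA, an electron carrier of beta-oxidation, also by 0.23 (edgeR adjusted p = 1.58e-05).

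Levels can be compared between genes only per length. On the scale of CPM per kilobase of the longest coding transcript in GENCODE 29, the highest vector means were FDPS at 175 ± 5.11, ACLY at 121 ± 0.0241, SCD at 110 ± 0.940, SQLE at 70.0 ± 1.77 and HMGCS1 at 65.5 ± 1.42 (SD, n = 2). The lowest were ELOVL6 at 4.31 ± 0.0529, TM7SF2 at 5.57 ± 0.903 and SCAP at 10.4 ± 0.651. All 31 genes had at least 152 counts in each library, so none was near the floor of 3 counts.

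The ratio of parental Be2C cells to the vector mean has no test, because there was 1 parental library. That library also came under another protocol text than the vector libraries, so preparation and cells cannot be told apart. At least 2-fold, FASN was higher and ACAT2 lower, on the scale of log2 CPM with 1 added. Over 11720 genes with 5 CPM on either side, 8.55% were that much higher and 2.67% that much lower. The median log2 ratio of the 31 genes was -0.28, against 0.03 over all genes. It was -0.37 for the 19 sterol enzymes, of which PMVK and SC5D alone had positive log2 ratios. Over all genes, 6219 of 11720 log2 ratios were positive. FASN stood at 722 CPM in the parental library, against 315 and 326 CPM in vector libraries, a ratio of 2.25 (95% counting interval 2.21 to 2.29). SREBF2 had a ratio of 1.91 (1.86 to 1.95), ELOVL6 of 1.48 (1.38 to 1.59) and SCD of 1.38 (1.36 to 1.40). INSIG1, just short of 2-fold on the scale with 1 added (log2 -0.99), had a ratio of 0.494 (0.463 to 0.527) and EBP of 0.565 (0.531 to 0.600). Without vector replicate 1, 0 members were 2-fold lower, and without vector replicate 2 there were 2. These intervals are from exact binomial limits on the summed counts and cover counting error only.

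Transcript length moved with this difference. Across 10621 genes with a known transcript, the Spearman correlation of the parental to vector log2 ratio with transcript length was 0.353, and across the 31 genes it was 0.564. For LMO1 over vector it was -0.00 across 12984 genes, and for Kelly over parental 0.02 across 11250 genes. With GC content, the 3 correlations across all genes ran from -0.07 to -0.03. All genes of a ratio share the same libraries, so these are descriptions. The part of length in the parental to vector difference was not tested.

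Kelly was set against parental Be2C, with 1 library on each side and no test. The summed levels of the regulators and sterol carriers were 1035 CPM in Kelly, against 659 CPM in parental Be2C. The 7 mevalonate enzymes summed to 370 CPM in Kelly, against 619 CPM in parental Be2C. Genes of high level weigh most in these sums, which are not per length. SREBF2 held 706 CPM in Kelly and 394 CPM in parental Be2C, and FDPS 74.0 CPM and 221 CPM. The ratio of Kelly to parental Be2C was 1.03 for SREBF1, 0.929 for STARD4 and 1.24 for MVD. At least 2-fold, TM7SF2 was higher and FDPS, SC5D and MVK were lower. Over 12361 genes, 15.1% were that much higher and 13.7% that much lower. The median log2 ratio of the 31 genes was -0.08, against -0.04 over all genes.

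In the mevalonate pathway the median log2 ratio was -0.71, and MVD alone was higher in Kelly. FDPS stood at 74.0 CPM in Kelly, against 221 CPM in parental Be2C, a ratio of 0.335 (95% counting interval 0.323 to 0.347), the lowest of the set. MVK stood at 11.6 CPM in Kelly, against 24.5 CPM in parental Be2C, a ratio of 0.472 (0.429 to 0.519), and PMVK had a ratio of 0.522 (0.490 to 0.556). FDFT1, SQLE and LSS were also lower, with ratios of 0.598, 0.687 and 0.892.

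The later sterol enzymes went both ways in Kelly. SC5D stood at 44.8 CPM in Kelly, against 107 CPM in parental Be2C, a ratio of 0.419 (0.400 to 0.439). MSMO1 was higher, at 69.0 CPM in Kelly, against 35.3 CPM in parental Be2C, a ratio of 1.96 (1.85 to 2.07), and TM7SF2 had a ratio of 2.89 (2.54 to 3.30). LBR and DHCR7 had ratios of 1.55 and 1.53. The ratio of HSD17B7 was 0.999 (0.871 to 1.15).

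SREBF2 stood at 706 CPM in Kelly, against 394 CPM in parental Be2C, a ratio of 1.79 (1.76 to 1.82). SCAP had a ratio of 1.98 (1.89 to 2.07) and INSIG1 of 1.62 (1.52 to 1.73), while SREBF1 had a ratio of 1.03 (0.988 to 1.07). Among the fatty acid enzymes FASN had a ratio of 0.952, SCD of 0.979, FADS1 of 0.979 and FADS2 of 1.13, with ACLY the lowest at 0.679 and ELOVL6 the highest at 1.41. The 2 lines differ in many genes besides LMO1, and a difference due to LMO1 and one due to the line cannot be told apart here.

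**Figure D4:**
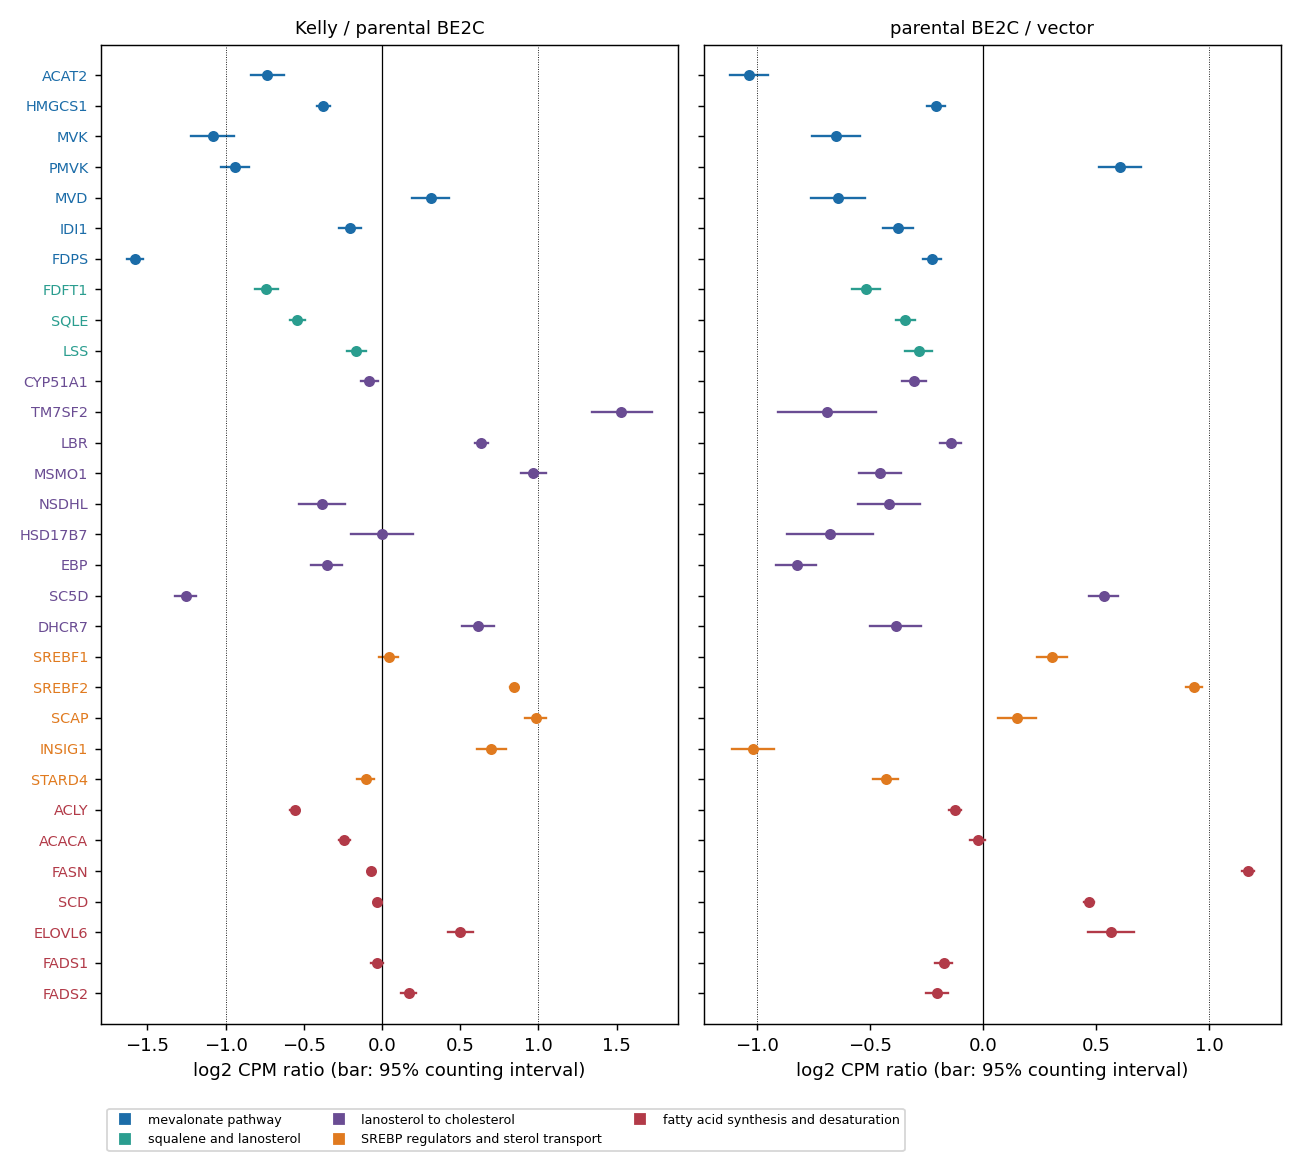
Rows are genes, coloured by role, and points are log2 CPM ratios of Kelly over parental Be2C (left panel) and of parental Be2C over vector (right panel), with nothing added to the CPM, bars for the 95% counting interval and dotted lines at 2-fold. FDPS lies furthest left in the Kelly panel, at a ratio of 0.335, and FASN furthest right in the parental panel, at a ratio of 2.25.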

How the data were processed

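The deposited table holds raw counts of reads per gene symbol in 6 libraries, whole numbers that the authors left without normalization. Per the submitters' processing notes TopHat2 2.0.6, HTSeq and hg19 were used. Sources used here give neither the annotation nor the strand setting. Per the labels' protocols, total RNA was made into libraries with a stranded total RNA kit. The LMO1 and vector libraries shared a protocol text, and the parental and Kelly libraries came under another.

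The LMO1 to vector test used edgeR 4.0.16 under R 4.3.3 (TMM, filterByExpr, quasi-likelihood test, Benjamini-Hochberg adjustment over 15480 genes, called below 0.05). SEs and 95% intervals come from that fit, which had 2 residual and 43.7 prior degrees of freedom. CPM levels carry TMM factors computed from the 6 libraries together. Ratios with 1 library on a side were log2 of CPM with 1 added, over genes with 5 CPM on either side. DESeq2 1.42.0 and limma 3.58.1 were alternatives. The fit was checked on simulated data. Counts of replicates disagreed beyond sampling noise, with a chi-square ratio of 2.84 in the LMO1 pair and 2.70 in the vector pair. Total counts per library ranged from 18737591 to 59512958, and single-library intervals reflect counting error alone. Reference sequences and gene models are of a later build than the counts, and were matched by symbol. Of the other lists, the up to 3 called genes with the lowest adjusted p are named. FNTA was named after its values were seen. The 31 genes and the other lists were chosen with earlier results of these data known.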

Additional observations from a re-analysis of the deposited data

How the results depend on the processing

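Over the alternatives that kept the parental library out of the controls, the 31 genes gave 13 to 17 lower and 0 to 4 higher calls. The higher calls numbered 1 with DESeq2 size factors, DESeq2, limma-voom, no low-count filter and all 6 libraries, and 4 with total-count scaling and at 5 CPM. DESeq2 called 1539 genes higher and 1431 lower, and total-count scaling 2735 and 1853, against 2463 and 2334. The median of the 31 was -0.13 with total-count scaling and at 5 CPM, and -0.16 without the filter and with all 6 libraries. Leaving out 1 library gave 13 to 15 lower and 0 to 1 higher members, 1670 to 1745 lower and 1772 to 1914 higher genes, and medians of -0.16 to -0.15. Whether same-numbered libraries shared a culture or batch is not known from their numbers. Their deviations had r = -0.02 over 11358 genes, which cannot settle it. The replicate block gave 16 lower and 2 higher members, and 2374 lower and 2473 higher genes, and ACLY lost its call (edgeR adjusted p = 0.0625).

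With the parental library as a control, edgeR and limma-voom called 0 genes and 0 members in either direction. DESeq2 called 245 genes higher and 105 lower, with 0 members higher and 1 lower. The medians were -0.15, -0.12 and -0.16 for edgeR, limma-voom and DESeq2. Signs turned, in the order edgeR, DESeq2 and limma-voom, for PMVK (-0.153, -0.157, -0.154), DHCR7 (0.0738, 0.0689, 0.110), SREBF1 (-0.00678, -0.0123, -0.0114), SCAP (-0.0221, -0.0282, -0.0270), SCD (-0.165, -0.169, -0.147) and FADS1 (0.0275, 0.0218, 0.0304), and for MVK with limma-voom (0.0682). With 1 library left out, signs also turned in 4 genes: values ran from -0.133 to 0.203 for TM7SF2, from -0.00533 to 0.0163 for SCD, from -0.0339 to 0.0986 for SCAP and from -0.0142 to 0.167 for PMVK. None of these genes was called. The cause was not tested.

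For single libraries, 2 members were 2-fold higher and 2 lower in Kelly than in parental cells with total-count scaling, 2 were lower with a pseudocount of 5 CPM, and against the vector mean 4 were higher and 5 lower. In parental cells against vector, 2 members were 2-fold lower with a pseudocount of 0.1 CPM and 0 with 5 CPM, and 0 to 2 with 1 vector library left out. Having 2 libraries a group, growth conditions that the labels do not give and the unknown counting settings limit all comparisons.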
